A study of Mus musculus with 32 samples.

Results

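Hematopoietic stem cells (HSCs) were compared with multipotent progenitor 1 (MPP1), the population nearest to them, in young mice. The comparison took the 4 libraries labelled as young HSC and young MPP1, 2 of each, out of 32 libraries in the series, and it measured gene expression by RNA sequencing. All 4 came from the bone marrow of female C57BL/6 mice at 10 weeks of age, with no treatment and no genetic change. HSCs were sorted as cells without lineage antigens, IL-7 receptor, CD34, CD48 or Flt3 and with Sca-1, c-Kit and CD150 on their surface. MPP1 were sorted by the same antigens except that CD34 was present, so CD34 alone separated the fractions. The other libraries came from MPP2, MPP3, MPP4 and 3 kinds of more restricted progenitors at the same age, and from all 8 fractions at 20 months. For each age the marrow of the mice was combined before 2 sorts, so the 2 libraries of a fraction may share a pool, and the p-values given here then measure the spread between sorts and libraries rather than between mice.

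HSCs rebuild all blood lineages for the life of the animal, and in the adult most of them rest outside the cell cycle. MPP1 keep the capacity to make every lineage but sustain it for a shorter time, and they are regarded as an early step on the way from HSCs to the lineage-biased MPP2, MPP3 and MPP4. A cell that leaves rest passes first through G1 phase, where cyclins and their kinases inactivate the Rb family and release E2F factors, which turn on the genes of DNA replication. The genes of G2 phase and mitosis come on later, under the MuvB and B-Myb complexes and the CCAAT-binding factor NF-Y.

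The total count per library was 11252143 and 14220196 in HSCs and 13291845 and 13516329 in MPP1. Of 24421 genes, 14154 passed a filter on low counts and were tested. The root mean square log2 difference was 0.521 between the duplicates of HSCs, 0.461 between those of MPP1 and 0.746 to 0.803 between 1 library of each fraction. Between group means it was 0.687 for MPP1 against HSCs, and 1.06 to 1.22 for MPP2, MPP3 and MPP4 against HSCs. MPP1 were therefore the fraction closest to HSCs, and the 2 fractions differed by more than their duplicates did.

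A gene is called higher or lower where its adjusted p in edgeR's quasi-likelihood test was under 0.01, the level of the study. Fold changes are given on the log2 scale as MPP1 minus HSC, with their standard error, and levels as CPM, the count of a gene per 1000000 counts of its library. Where levels are set against each other, the 2 HSC libraries come first and the 2 MPP1 libraries second. In MPP1 1288 genes were higher and 802 lower than in HSCs, which was 9.1% and 5.67% of the genes tested. Each count of list members below is read against these shares. The counts rested in part on single libraries: they were 698 and 340 without HSC replicate 2, 817 and 220 without MPP1 replicate 1, 917 and 364 without MPP1 replicate 2, and 931 and 652 without HSC replicate 1. Of 155 called genes chosen by a rule for naming, 90 stayed called in each of these 4 fits, and where one of the others is described, the loss of its call is stated. The change was at least 1 on the log2 scale for 425 of the higher and 169 of the lower genes. Irrespective of any test, both MPP1 libraries lay above both HSC libraries for 34.4% of the genes tested and below them for 31.6%, so a lack of overlap alone says little with 2 libraries a group. The median over all genes tested was -0.01. Called genes differed in their make-up as well: the median exon length was 5342 bases for the higher genes, 2858 for the lower ones and 4277 for all genes tested, and the median GC content 47%, 53.1% and 49.7%. What part length and GC content had in the calls was examined only by a fit with offsets for both. Its counts are given for some of the lists whose number of calls it moved.

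**Figure D1:**
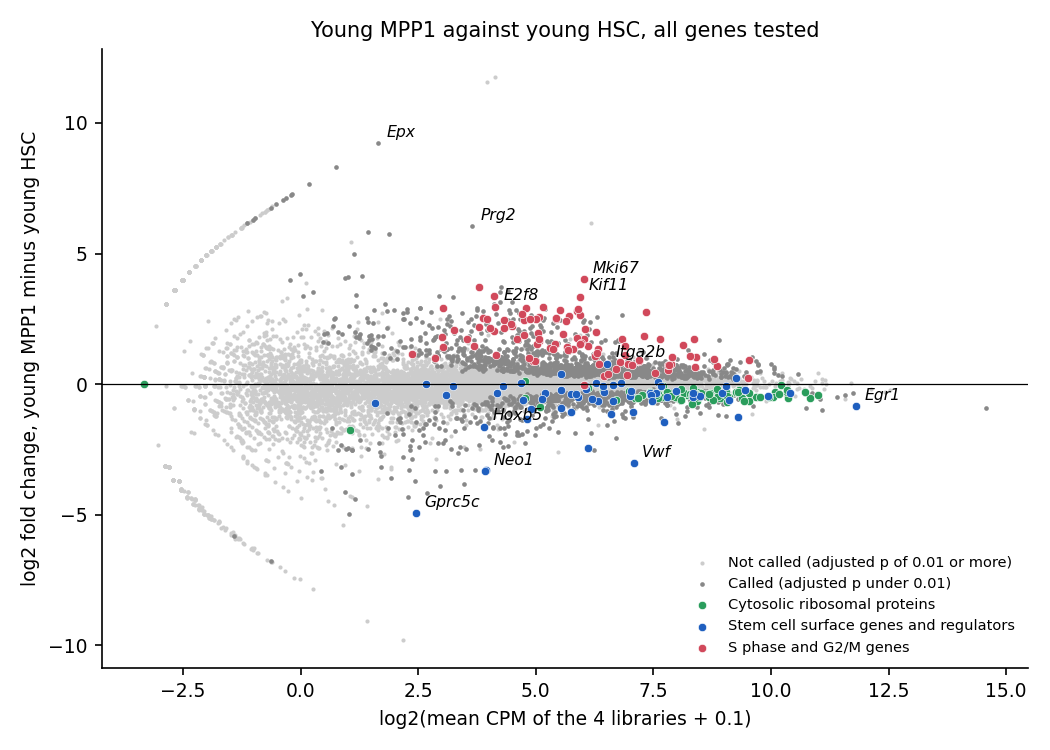
Log2 fold change of young MPP1 against young HSC (vertical axis) by the log2 of the mean CPM of the 4 libraries plus 0.1 (horizontal axis), 1 point for each of 14154 genes. Red points, the S phase and G2/M genes, lie above 0 apart from 1 gene, and blue points, the stem cell genes, lie mostly below 0.

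The genes of the sorting antigens served as a check of the labels, and 3 of 7 were higher and 1 was lower. Cd34, whose protein was the gate between the fractions, had 226 and 218 CPM in HSCs and 724 and 725 CPM in MPP1, and since the gate used it this is no finding. Kit, the receptor of stem cell factor, had 1319 and 1220 CPM in HSCs and 1519 and 1431 CPM in MPP1, a difference of 0.19 ± 0.11 that was not called (adjusted p = 0.216). Ly6a, which encodes Sca-1, had 304 and 336 CPM against 170 and 177 CPM and was not called either (-0.91 ± 0.47, adjusted p = 0.169). Il7r had no count in any of the 4 libraries, which allows up to 3 counts or 0.211 to 0.267 CPM per library.

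Transcripts of antigens that both gates treated alike were unequal. Slamf1, which encodes the CD150 that both fractions carried, was lower in MPP1, at 60.9 and 56.5 CPM against 20.6 and 23.7 CPM (-1.43 ± 0.26, adjusted p = 0.000338). Its adjusted p was 0.0132 without MPP1 replicate 1. In the list of markers of the gate, Procr, the gene of the HSC receptor EPCR, was also lower, and the 5 markers summed to 3037 and 2894 CPM against 2625 and 2558 CPM. Flt3, a cytokine receptor of lymphoid-primed progenitors that both gates excluded, was higher in MPP1, at 32.2 and 28.6 CPM against 92.5 and 93.7 CPM (1.59 ± 0.18, adjusted p = 1.03e-06). Cd48, likewise excluded, was higher in MPP1 too, at 1.16 and 1.13 CPM against 8.73 and 6.58 CPM (2.71 ± 0.21, adjusted p = 2.53e-09). Both transcripts were far higher in the fractions that carry the proteins: Cd48 averaged 102 to 138 CPM in MPP2, MPP3 and MPP4, and Flt3 averaged 1127 CPM in MPP4.

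Cell cycle genes made up the broadest change. All 43 genes of the S phase list, which serve DNA replication and its supply of nucleotides, were higher in MPP1, with a median log2 fold change of 1.30 and a range of 0.36 to 2.97. Of 54 genes of the G2/M list, which serve spindle, kinetochore and chromosome segregation, 50 were higher and 0 lower, with a median of 2.17. The 4 others were Hjurp (0.58), Ctcf (0.31), Tubb4b (0.25) and Gas2l3 (-0.04). Both lists are common gene lists for scoring these phases. The summed level of the S phase genes was 3236 and 3161 CPM in the HSC libraries and 6696 and 6695 CPM in the MPP1 libraries. For the G2/M genes it was 2905 and 2871 CPM against 6821 and 6660 CPM. In bulk RNA, more cells in a phase and more of its RNA per cell cannot be told apart. Leaving out any 1 of the 4 libraries left 41 to 42 S phase genes and 50 to 51 G2/M genes called.

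Cell cycle genes were also among those with large changes. Of 156 genes higher by at least 2 on the log2 scale, 34 belonged to these lists, which hold 97 genes. Mki67, which encodes the Ki-67 protein of cycling cells, had 7.38 and 7.45 CPM in HSCs and 148 and 98.2 CPM in MPP1, a 16.3-fold difference (4.02 ± 0.26, adjusted p = 9.43e-11). Cenpe, a kinesin of the kinetochore, had 2.31 and 1.55 CPM against 28.1 and 23.1 CPM (3.72 ± 0.26, adjusted p = 2.84e-10). Cenpf, another kinetochore protein, had 4.89 and 1.34 CPM against 35.4 and 27.2 CPM (3.37 ± 0.29, adjusted p = 1.36e-08). Kif11, the motor that pushes spindle poles apart, had 11.5 and 10.2 CPM against 115 and 109 CPM (3.35 ± 0.15, adjusted p = 4.95e-13). The HSC duplicates differed by more than the MPP1 duplicates for Cenpf and by less for Mki67, and the groups did not overlap for any of these genes. Mki67 lies at chr7:135689784-135716361 on the minus strand (GENCODE M21, mm10). Outside the lists the spindle genes Spag5, Aspm, Kif15 and Kif4, the replication initiation factor gene Ticrr and Depdc1a were among the 15 genes named for the largest rise, with fold changes of 3.13 to 3.70.

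The S phase genes with the largest rise were E2f8, Rad51ap1, Rrm2 and Clspn. E2f8, an E2F that represses targets late in S phase, had 5.42 and 2.60 CPM in HSCs and 31 and 31.1 CPM in MPP1 (2.97 ± 0.18, adjusted p = 3.57e-11). Rrm2, a subunit of ribonucleotide reductase, had 22.4 and 25.7 CPM against 112 and 102 CPM (2.13 ± 0.08, adjusted p = 1.13e-13). Rad51ap1, a DNA repair factor gene, rose by 2.16 ± 0.16 and Clspn, which relays replication stress to the kinase CHK1, by 2.06 ± 0.22.

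The promoters of these genes are shown because G2/M and S phase genes are known for different elements near their start sites. Each line gives the 200 bases before the RefSeq start (GRCm38.p6, the build of the files' mm10), read 5′ to 3′ on the strand of the gene, with every match to 3 motifs in capitals. The motifs, searched on both strands, were the cell cycle homology region (CHR, TTTGAA), the NF-Y element CCAAT, and the E2F site (TTT, then 2 bases that are C or G, then CGC). No 2 matches overlapped in these windows. The windows are chr7:135716380-135716579 for Mki67, chr3:135212363-135212562 for Cenpe, chr1:189688087-189688286 for Cenpf, chr19:37376182-37376381 for Kif11, chr7:48881597-48881796 for E2f8 and chr4:126556780-126556979 for Clspn, of which Cenpe, Kif11 and Clspn are on the plus strand and the others on the minus strand.
Mki67: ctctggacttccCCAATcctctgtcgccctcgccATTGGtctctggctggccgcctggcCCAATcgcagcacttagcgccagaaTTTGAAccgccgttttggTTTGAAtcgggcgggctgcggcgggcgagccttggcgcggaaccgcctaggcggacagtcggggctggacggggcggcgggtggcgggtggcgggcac
Cenpe: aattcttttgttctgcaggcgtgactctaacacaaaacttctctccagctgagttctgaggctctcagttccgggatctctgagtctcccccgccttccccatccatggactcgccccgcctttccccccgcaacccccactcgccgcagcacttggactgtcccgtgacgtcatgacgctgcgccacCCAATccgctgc
Cenpf: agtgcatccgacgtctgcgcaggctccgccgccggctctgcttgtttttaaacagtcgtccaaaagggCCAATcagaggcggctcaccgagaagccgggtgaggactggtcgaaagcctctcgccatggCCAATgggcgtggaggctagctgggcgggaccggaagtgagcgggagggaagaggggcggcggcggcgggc
Kif11: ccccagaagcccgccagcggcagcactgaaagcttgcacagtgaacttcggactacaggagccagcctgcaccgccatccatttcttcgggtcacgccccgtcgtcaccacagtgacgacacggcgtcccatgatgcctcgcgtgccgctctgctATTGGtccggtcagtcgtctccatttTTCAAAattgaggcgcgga
E2f8: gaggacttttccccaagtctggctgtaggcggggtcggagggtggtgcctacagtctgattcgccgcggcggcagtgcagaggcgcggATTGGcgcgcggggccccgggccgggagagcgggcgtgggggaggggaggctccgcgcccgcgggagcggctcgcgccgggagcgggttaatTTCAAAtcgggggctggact
Clspn: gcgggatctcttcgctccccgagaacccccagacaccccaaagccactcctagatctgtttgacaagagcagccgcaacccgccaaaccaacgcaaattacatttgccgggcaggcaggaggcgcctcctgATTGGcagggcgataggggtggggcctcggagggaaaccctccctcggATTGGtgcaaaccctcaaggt
Mki67 held CHR matches that begin 116 and 98 bases before its start and 3 CCAAT matches further upstream. In Kif11 a CCAAT match on the reverse strand began 45 bases and a CHR match 19 bases before the start, and in E2f8 they began 112 and 20 bases before it. Cenpe, Cenpf and Clspn held CCAAT matches alone, and no E2F site of these letters lay in the 6 windows.

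Over the longer windows of the promoter table, 250 bases before to 50 after the start, 47 of the 54 G2/M genes had an entry. Of these 70.2% held a CHR match and 76.6% a CCAAT match, against 20.2% and 41.1% of all 27025 promoters in the table. An E2F match was in 6.38% of the G2/M promoters, 3 of 47, and in 2.61% of all promoters. Of the 14154 genes tested 11170 had an entry. Of these 4.64% held an E2F match, 14.7% a CHR match and 42.8% a CCAAT match. Of the 1288 higher genes 1062 had an entry, and 11.4% of these held an E2F match, 22.1% a CHR match and 48.4% a CCAAT match. Of the 802 lower genes 645 had one, with 1.71%, 14.9% and 44%. For the S phase list only 31 of 43 genes had an entry, so its shares leave out part of the list. Of these 31 genes 12 (38.7%) held an E2F match, 6 (19.4%) a CHR match and 22 (71%) a CCAAT match. A match is a description of letters and not evidence that a factor was bound.

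Regulators of the cell cycle moved in a less uniform way, and their lists share Ccne2 and E2f8 with the S phase list above. Of 10 G1 cyclins and kinases 7 were higher and 1 lower. Ccna2, the cyclin A of S and G2 phase, had 34.5 and 27.0 CPM in HSCs and 197 and 198 CPM in MPP1 (2.66 ± 0.09, adjusted p = 3.03e-14). The cyclin E genes Ccne2 and Ccne1, partners of Cdk2 at the start of replication, rose by 1.79 ± 0.14 and 1.30 ± 0.16. Cdk6, a kinase of early G1 known for its low level in resting HSCs, had 20.5 and 21.5 CPM against 56.1 and 48.2 CPM (1.28 ± 0.12, adjusted p = 7.09e-08). The D-type cyclins, which pair with Cdk4 and Cdk6, did not follow: Ccnd2 was lower, at 585 and 531 CPM against 421 and 406 CPM (-0.46 ± 0.12, adjusted p = 0.00948), Ccnd1 differed by -0.40 ± 0.20 and Ccnd3 by -0.09 ± 0.08, neither called. The call of Ccnd2 was lost without any 1 of the libraries, with an adjusted p of up to 0.0663 without MPP1 replicate 2.

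Among 10 inhibitors of cyclin-dependent kinases and pocket proteins, 8 were tested, 2 were higher and 1 was lower. Cdkn1c, the imprinted gene of p57 that is known for holding HSCs at rest, had 152 and 143 CPM in HSCs and 57.3 and 55.3 CPM in MPP1, a 2.66-fold lower level (-1.41 ± 0.25, adjusted p = 0.000222). Cdkn2c, which encodes p18, an inhibitor of Cdk4 and Cdk6, went the other way, from 8.89 and 6.96 CPM to 35.7 and 37.1 CPM (2.18 ± 0.12, adjusted p = 4.84e-12). Rbl1, which encodes the pocket protein p107, rose by 1.15 ± 0.12. Cdkn1a differed by -0.06 ± 0.13 and Cdkn1b, which encodes p27, by -0.12 ± 0.20, and neither was called. Cdkn2a and Cdkn2b had no count in the 4 libraries. Of 10 E2F and DP genes 6 were higher and 0 lower. Besides E2f8 these were E2f7 (2.09 ± 0.16), E2f2 (2.04 ± 0.18), the activator E2f1 (1.05 ± 0.09), Tfdp1 (0.71 ± 0.06) and Tfdp2 (0.43 ± 0.10). The call of Tfdp2 was lost without any 1 library.

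In the Myc network, which controls growth in cell mass, 1 of 12 genes was higher and 1 lower. Each share, 8.33%, was near the 9.1% and 5.67% over all genes tested. Myc itself had 528 and 502 CPM in HSCs and 508 and 500.0 CPM in MPP1 (-0.06 ± 0.18, adjusted p = 0.873). Mycn was lower, at 389.5 and 368 CPM in HSCs against 212 CPM in both MPP1 libraries (-0.86 ± 0.18, adjusted p = 0.00114). Its call was lost in 2 of the 4 fits without 1 library. Mxd3, a partner of Max that is expressed in S phase, rose by 1.40 ± 0.21.

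Genes that mark HSCs were lower in MPP1, in some cases by over 8-fold and in others by little. Of 28 surface and reporter genes that are used to identify HSCs, 14 were lower and 1 higher, with a median of -0.50. Leaving out 1 library left 9 to 12 lower calls. Vwf, the von Willebrand factor gene that marks platelet-biased HSCs, had 247 and 235 CPM in HSCs and 30.8 and 29.0 CPM in MPP1, an 8.21-fold lower level (-3.04 ± 0.22, adjusted p = 7.04e-10). Vwf lies at chr6:125546774-125686679 on the plus strand. Neo1, a netrin receptor gene, had 24.5 and 30.0 CPM against 2.56 and 2.96 CPM (-3.33 ± 0.41, adjusted p = 1e-05). Clu, which encodes the secreted chaperone clusterin, had 27.8 and 27.0 CPM against 3.08 and 2.66 CPM (-3.28 ± 0.27, adjusted p = 7.3e-09). Gprc5c, a receptor gene known from dormant HSCs, had 11.7 and 9 CPM against 0 and 0.666 CPM (-4.93 ± 1.01, adjusted p = 0.00138), and its adjusted p was 0.0312 without MPP1 replicate 1. Both MPP1 libraries lay below both HSC libraries for 23 of the 28 genes, and for 31.6% of all genes tested. The gene called higher was Itga2b, which encodes the integrin CD41, at 70.9 and 62.0 CPM against 118 and 114 CPM (0.78 ± 0.15, adjusted p = 0.000492; 0.0228 without HSC replicate 2).

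**Figure D2:**
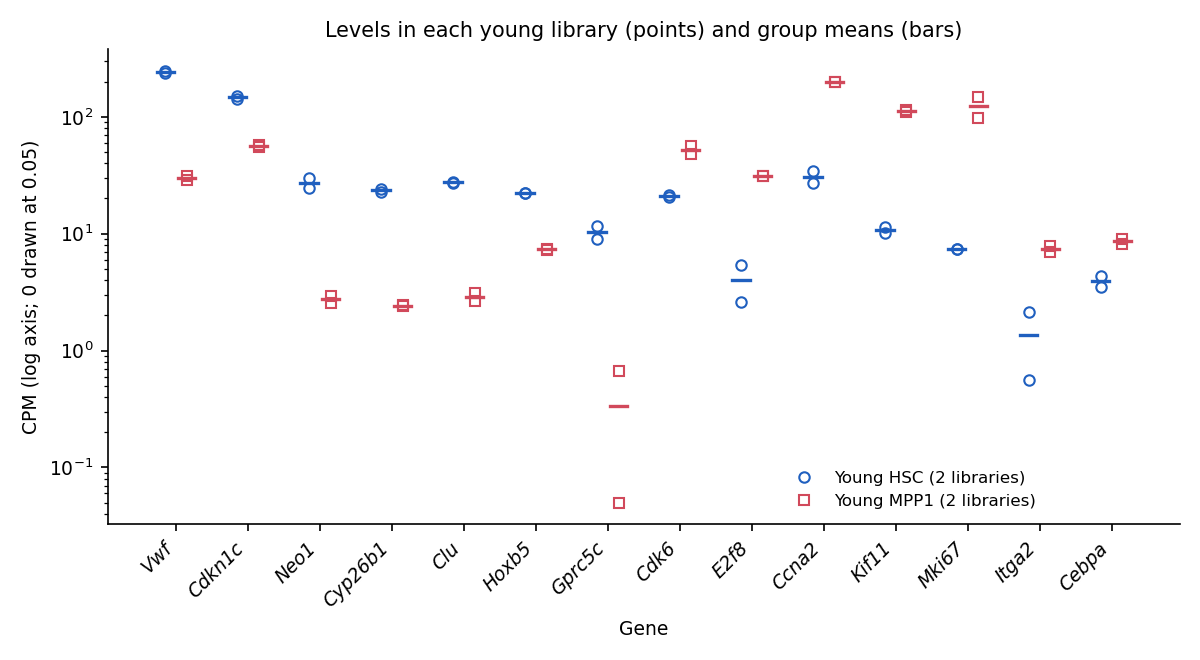
CPM of 14 named genes on a log axis in each young HSC library (blue circles) and young MPP1 library (red squares), with short bars at the group means and a value of 0 drawn at 0.05. The fractions do not overlap for any of the 14 genes, and the levels of Gprc5c in MPP1 rest on 0 and 9 counts.

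Transcription regulators of the stem cell state changed less. Of 33 such genes 6 were lower and 0 higher, with a median of -0.35 and 29 of 33 on the negative side. Over all genes tested 7146 of 14154 were on the negative side. With offsets for gene length and GC content 8 were lower. Leaving out 1 library left 5 to 6 lower calls. Hoxb5, a homeobox gene used to mark long-term HSCs, had 22.4 and 22.3 CPM in HSCs and 7.30 and 7.40 CPM in MPP1 (-1.63 ± 0.31, adjusted p = 0.000882). Its call was lost in 2 of the 4 fits without 1 library. Ndn, an imprinted gene of the necdin growth suppressor, had 129 and 136 CPM against 62.3 and 60.7 CPM (-1.14 ± 0.18, adjusted p = 7.9e-05). Nkx2-3, a homeobox gene, differed by -0.66 ± 0.11 and Egr1, an immediate early factor that also restrains HSC division, by -0.86 ± 0.13. Mecom, which sustains HSCs, had 205 and 194 CPM against 158 and 142 CPM, a difference of -0.44 that was not called (adjusted p = 0.037). Hlf, another HSC factor, had 784 and 701 CPM against 664 and 635 CPM and was not called (-0.22, adjusted p = 0.345). Mecom and Hlf were named for their standing in the field, outside the rule for named genes.

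Of the 21 Hoxa and Hoxb genes 16 were tested, and Hoxb5 alone was called. This share of 6.25% was near the 5.67% over all genes tested. The median of the family was -0.82 and 13 of the 16 were on the negative side, as were 7146 of all 14154 genes tested. The summed level of the 21 genes was 320 and 327 CPM in HSCs and 227 and 230 CPM in MPP1. The 22 imprinted genes of fetal growth summed to 1634 and 1598 CPM in HSCs and 1397 and 1374 CPM in MPP1. Of these genes 14 were tested, with a median of -0.86 and every tested gene on the negative side. The median was -0.60 with no filter on low counts, and -0.57 with only the libraries compared or only the 16 young libraries. Of the 14 genes 4 were called lower. They were Igf2, the insulin-like growth factor gene (5.78 and 7.74 CPM in HSCs, 0.677 and 0.444 CPM in MPP1), Dlk1, a Notch-related ligand gene, Cdkn1c and Ndn. The calls of Igf2 and Dlk1 were lost without any 1 library, with adjusted p of up to 0.056 and 0.103.

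Retinoic acid keeps HSCs dormant, and genes of its pathway were lower in MPP1. Of 13 genes 10 were tested, 5 were lower and 0 higher, with a median of -0.71. Leaving out 1 library left 2 to 4 lower calls, the fewest without MPP1 replicate 1. Cyp26b1, the enzyme that degrades retinoic acid, had 24.3 and 22.9 CPM in HSCs and 2.41 and 2.44 CPM in MPP1, a 9.87-fold lower level (-3.30 ± 0.30, adjusted p = 6.55e-07). Rarb, a retinoic acid receptor, had 14.8 and 20.1 CPM against 2.78 and 3.85 CPM (-2.42 ± 0.47, adjusted p = 0.000841). Its call was lost in 2 of the 4 fits without 1 library. Rdh10, which oxidizes retinol, had 25 and 26.4 CPM against 7.37 and 8.95 CPM (-1.68 ± 0.17). Aldh1a1, which makes retinoic acid, had 96.6 and 93.5 CPM against 53 and 58.7 CPM (-0.79 ± 0.18), and was not called once any 1 library was left out (adjusted p of up to 0.0496). Genes for making, sensing and removing retinoic acid were thus among the lower ones.

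In the TGF-beta and BMP pathways, which also act on HSC rest, 4 of 33 tested genes were lower and 0 higher, with a median of -0.06. They were the ligand gene Bmp4 (3.55 and 3.31 CPM in HSCs, 0.376 and 0 CPM in MPP1), the receptor genes Bmpr1a (-2.46 ± 0.54) and Eng (-0.45 ± 0.08), and the target gene Id1 (-1.05 ± 0.23). The call of Eng held without any 1 library, while the adjusted p of Bmp4, Bmpr1a and Id1 reached 0.0303, 0.0615 and 0.0406.

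The 15 largest falls by the rule for named genes held several genes known from endothelial and stromal tissues. Cldn5, a tight junction claudin, had 8.98 and 9.14 CPM in HSCs and 0.527 and 0.370 CPM in MPP1 (-4.33 ± 0.42, adjusted p = 8.97e-07). Ramp2, a co-receptor for adrenomedullin, had 11 and 13.1 CPM against 0.451 and 0.888 CPM (-4.18 ± 0.50, adjusted p = 5.57e-06). The growth factor gene Pdgfc had 22.3 and 19 CPM against 0.978 and 1.92 CPM (-3.84 ± 0.59). Tm4sf1, Ndnf, Shisa9, Ncam2, Smtnl1 and Tmem163 were also among them, with Gprc5c, Igf2, Neo1, Cyp26b1 and Clu. The calls of Ndnf and Ncam2 were each lost in 3 of the 4 fits without 1 library. Of the endothelial markers, Cdh5 had no count in either fraction and Kdr, a VEGF receptor gene, had 152 and 160 counts in HSCs and 39 and 32 in MPP1 (-2.24 ± 0.45, adjusted p = 0.00095). The 5 endothelial markers summed to 109.6 and 109 CPM in HSCs and 100.4 and 97.3 CPM in MPP1, and their part in the falls was not tested.

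Immediate early genes, which respond within minutes to growth factors and to handling of cells, were among the most abundant transcripts that were lower. Of 23 genes 6 were lower and 0 higher, with a median of -0.23. Egr1 had 4776 and 4395 CPM in HSCs and 2561 and 2586 CPM in MPP1, and Junb, a subunit of AP-1, 2842 and 2886 CPM against 1466 and 1469 CPM (-0.99 ± 0.16). Ier2 had 2203 and 2230 CPM against 1181 and 1220 CPM (-0.91 ± 0.10) and Klf2, a Kruppel-like factor gene tied to quiescence of T cells, 659.6 and 629.8 CPM against 281 and 294 CPM (-1.19 ± 0.22). Btg2, which restrains proliferation, differed by -0.87 ± 0.15. The call of Cyr61, the last of them, was lost without any 1 library. The adjusted p of Klf2 was 0.0106 without MPP1 replicate 1. Fos was not called, at 4847 and 4688 CPM against 4296 and 4191 CPM (-0.19, adjusted p = 0.587), and was likewise named outside the rule.

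Genes of protein synthesis split by their role. Of 84 cytosolic ribosomal protein genes 82 were tested, 41 were lower and 0 higher, with a median of -0.40. Their summed level was 41718 and 46065 CPM in HSCs and 32591 and 35073 CPM in MPP1. Among the genes called, the largest falls were those of Rpl36 (-0.78 ± 0.12), Rpl37a (-0.68 ± 0.11), Rps14 (-0.65 ± 0.12) and Rpl17 (-0.65 ± 0.12). The number of lower calls rested on single libraries: it was 6 without MPP1 replicate 1, 9 without HSC replicate 2, 21 without MPP1 replicate 2 and 41 without HSC replicate 1. The calls of Rps14 and Rpl17 were among those lost, with adjusted p of up to 0.0137 and 0.0111. With offsets for gene length and GC content 30 were lower and the median was -0.27. Reads of these genes are shared with many near-identical pseudogene copies, so their counts are uncertain.

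Factors that build ribosomes moved the other way. Of 38 such genes 13 were higher and 1 lower, with a median of 0.21. Ncl, which encodes nucleolin, had 426 and 362 CPM in HSCs and 684 and 685 CPM in MPP1 (0.77 ± 0.11, adjusted p = 1.18e-05). Heatr1 and Nolc1, nucleolar factors of ribosomal RNA production, rose by 0.71 ± 0.13 and 0.66 ± 0.12, with adjusted p of 0.02 and 0.0192 without HSC replicate 2. In the fit without HSC replicate 2, 2 genes of the list were called higher, and 7 to 9 in the fits without another library. Of 27 chaperone genes 8 were higher and 0 lower, with a median of 0.20, led by Hsp90b1 of the endoplasmic reticulum (0.62 ± 0.08), Hspd1 of mitochondria (0.56 ± 0.06) and Hsp90aa1 of the cytosol (0.46 ± 0.07). Leaving out 1 library left 4 to 7 higher calls, and with offsets for gene length and GC content 13 were higher.

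**Figure D3:**
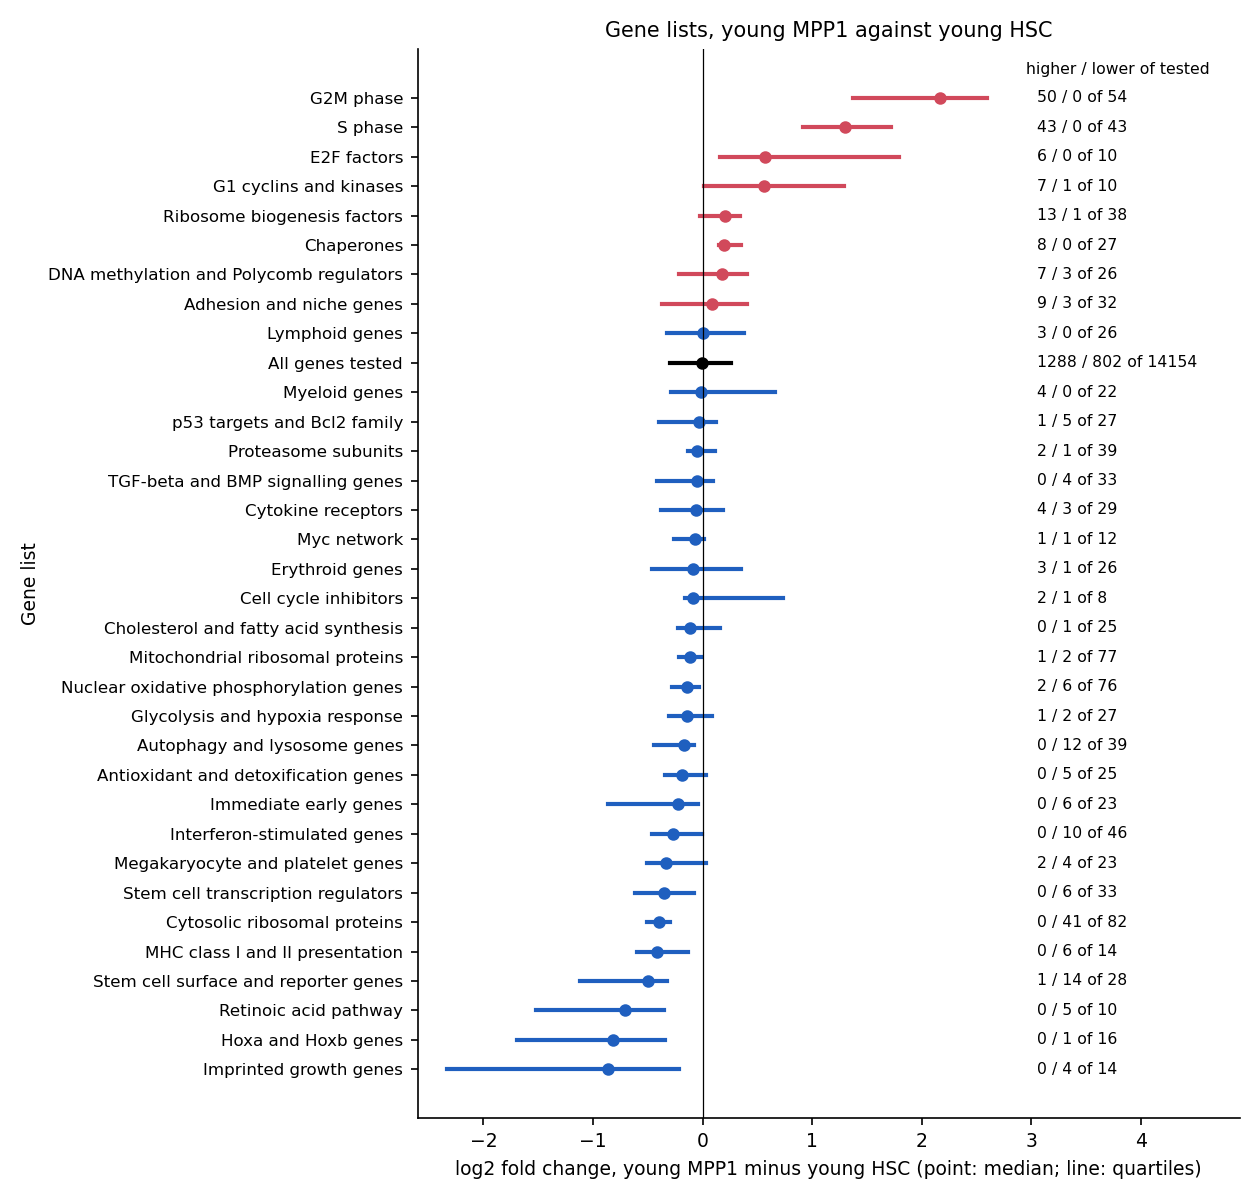
Median (point) and quartiles (line) of the log2 fold change of young MPP1 against young HSC over the tested genes of 33 lists and of all genes tested (black), with the number of genes called higher and lower at the right. Red marks a median above 0 and blue a median of 0 or below, and the S phase and G2/M lists stand at 1.30 and 2.17.

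Energy metabolism changed little. Of 76 nuclear genes of oxidative phosphorylation 2 were higher and 6 lower (median -0.15), of 77 mitochondrial ribosomal protein genes 1 and 2 (median -0.11), and of 39 proteasome subunits 2 and 1 (median -0.05). Of 27 genes of glycolysis and the hypoxia response 1 was higher and 2 were lower (median -0.15), where Aldoa, which encodes aldolase, had 847 and 858 CPM against 551 and 572 CPM (-0.63 ± 0.08, adjusted p = 4.44e-06). Cycs, which encodes cytochrome c, rose by 0.48 ± 0.07. Of 25 genes of cholesterol and fatty acid synthesis 1 was lower and 0 higher (median -0.11). The shares in these 5 lists were near or below those over all genes. With offsets for gene length and GC content 2 genes of oxidative phosphorylation were lower and 6 proteasome subunits higher, and without MPP1 replicate 1 no gene of oxidative phosphorylation was lower.

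Degradation, detoxification and antigen presentation genes were lower in part. Of 39 autophagy and lysosome genes 12 were lower and 0 higher, with a median of -0.17. The cathepsin genes Ctsh (-1.03 ± 0.17), Ctsl (-0.98 ± 0.15) and Ctsf (-0.87 ± 0.12), which encode lysosomal proteases, and Gabarapl1 (-0.79 ± 0.08), of the autophagosome membrane, led them. Without 1 library 6 to 11 of this list were lower, and with the offsets 8. Of 25 antioxidant and detoxification genes 5 were lower and 0 higher, among them the glutathione transferase genes Gstm5 (-0.70 ± 0.11) and Gstm1 (-0.68 ± 0.11). In fits without 1 library 2 to 4 of this list were lower, with 2 in the fits without HSC replicate 2, MPP1 replicate 1 or MPP1 replicate 2, and the offsets left 3. Of 14 genes of MHC presentation 6 were lower and 0 higher, with a median of -0.41. Cd74, the invariant chain of class II molecules, had 372 and 386 CPM in HSCs and 134 and 141 CPM in MPP1 (-1.49 ± 0.26, adjusted p = 0.000221), and the class I genes H2-D1 (-0.48 ± 0.08) and H2-K1 (-0.41 ± 0.08) fell by less. The adjusted p of H2-K1 was 0.0109 without MPP1 replicate 1, and 2 to 4 calls of this list were left without 1 library and 4 with the offsets. Of 46 interferon-stimulated genes 10 were lower and 0 higher, with a median of -0.27, led by the GTPase gene Igtp (-0.84 ± 0.15), and 3 to 6 lower calls were left without 1 library.

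Among 27 p53 targets and Bcl2 family genes 5 were lower and 1 higher. Between 2 and 4 were lower without 1 library, the fewest without MPP1 replicate 1, and 3 with the offsets. Plk2, a p53 target kinase gene, had 153 and 166 CPM in HSCs and 86.9 and 72.0 CPM in MPP1 (-1.03 ± 0.16, adjusted p = 0.000129), and Bok, a death-promoting member of the Bcl2 family, rose by 1.20 ± 0.20.

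Chromatin regulators changed in both directions. Of 26 DNA methylation and Polycomb genes 7 were higher and 3 lower. Uhrf1, which brings the maintenance methyltransferase to replicated DNA, had 93.0 and 90.0 CPM in HSCs and 317 and 299 CPM in MPP1 (1.72 ± 0.06, adjusted p = 7e-14), and Dnmt1, that methyltransferase, 179 and 163 CPM against 431 and 437 CPM (1.32 ± 0.09, adjusted p = 1.45e-10). Ezh2, the Polycomb methyltransferase of cycling cells, rose by 1.49 ± 0.09, and its paralog Ezh1, known from resting cells, differed by -0.73 ± 0.14 (adjusted p = 0.02 without MPP1 replicate 1). Cbx7, a Polycomb reader known from HSC self-renewal, had 59.99 and 65.7 CPM against 30.5 and 30.7 CPM (-1.06 ± 0.16, adjusted p = 3.84e-05). Dnmt3b, a methyltransferase gene for new sites, was also higher (0.76) and Cbx6, another Polycomb reader, lower (-0.62).

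Lineage genes were called in numbers from 0 to 4 a list and direction. Of 22 myeloid genes 4 were higher and 0 lower: Cebpa, the factor of granulocyte fate (4.35 and 3.52 CPM in HSCs, 8.20 and 9.03 CPM in MPP1), Csf3r, the G-CSF receptor gene (1.04 ± 0.10), Itgam, which encodes CD11b (1.02 ± 0.17), and Csf2rb (0.63 ± 0.14). The call of Cebpa was lost without HSC replicate 2, and that of Csf2rb in 3 of the 4 fits without 1 library. Of 26 lymphoid genes 3 were higher and 0 lower, with 11.5% higher being near the 9.1% over all genes tested. They included Flt3 and Ikzf1, a lymphoid factor gene (0.41 ± 0.11) whose call was lost without any 1 library, with an adjusted p of up to 0.163.

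Of 23 tested megakaryocyte and platelet genes 2 were higher and 4 lower, with a median of -0.33, and 2 to 3 lower calls were left without 1 library. Next to Vwf and Itga2b these included Gng11, a G protein subunit gene (-0.95 ± 0.12), and Plek, which encodes pleckstrin, with 16.1 and 16.2 CPM in HSCs and 45.6 and 48.2 CPM in MPP1 (1.51 ± 0.20, adjusted p = 9.95e-06). Of 26 erythroid genes 3 were higher and 1 lower, or 11.5% and 3.85%, near the 9.1% and 5.67% over all genes tested. Each of these 4 calls was lost in at least 1 fit without a library. Gata1, the erythroid and megakaryocyte factor gene, had 5.6 and 3.45 CPM against 9.18 and 9.77 CPM (1.07 ± 0.22, adjusted p = 0.00132). Its call was lost in 2 of the 4 fits without 1 library. Of 29 cytokine receptor genes 4 were higher and 3 lower, and of these Flt3, Csf3r and Il11ra1, a receptor subunit gene (-0.59 ± 0.09), held without any 1 library.

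Adhesion genes changed in both directions. Of 32 adhesion and niche genes 9 were higher and 3 lower. The leukocyte integrin gene Itgal had 4.00 and 5.06 CPM in HSCs and 15.7 and 16.7 CPM in MPP1 (1.80 ± 0.24, adjusted p = 9.05e-06). The collagen receptor gene Itga2, used to part short-term from long-term repopulating cells, had 2.13 and 0.563 CPM against 7.82 and 7.03 CPM (2.48 ± 0.54, adjusted p = 0.00223). Its call was lost in 3 of the 4 fits without 1 library. The lower genes were Jam2, of junctional adhesion (31.3 and 31.8 CPM against 9.40 and 11.8 CPM; -1.59 ± 0.23), Jam3 and the guidance receptor gene Robo4, and the calls of Jam3 and Robo4 were lost without any 1 library. In such fits 3 to 7 genes of the list were higher.

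Transcripts of mature cells were followed with 10 marker lists, which bear on what the sorted fractions could hold. The basophil, mast cell and eosinophil markers summed to 2.13 and 1.41 CPM in HSCs and 33.4 and 36.5 CPM in MPP1. Most of this was Prg2, the major basic protein gene of eosinophils, with 4 and 5 counts in HSCs and 317 and 341 in MPP1 (6.05 ± 0.65, adjusted p = 8.02e-07), and Epx, eosinophil peroxidase, with 0 and 0 against 69 and 93 counts. Against a floor of 3 counts per library Epx was higher by at least 4.66 on the log2 scale, and its adjusted p of 0.000625 was 0.0117 without HSC replicate 2. The mast cell protease gene Cpa3 rose with them (16 and 15 against 55 and 54 counts). In contrast the defining basophil genes Mcpt8 and Prss34 and the receptor gene Fcer1a had no count in the 4 libraries. Prg2 averaged 63.2 CPM in MPP2, 93.2 in MPP3 and 1.85 in MPP4, and in aged mice it had 4 and 7 counts in HSCs and 0 and 8 in MPP1.

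The other lists moved less or the other way. T and NK cell markers summed to 11.2 and 14.0 CPM in HSCs and 47.3 and 48.5 CPM in MPP1, nearly all from Nkg7 (73 and 121 against 550 and 600 counts; 2.47 ± 0.14), while Cd3d, Cd3e, Cd3g and Gzma had no count. Erythroblast markers summed to 1089 and 1178 CPM against 649 and 708 CPM with none of the 8 called, and their alpha globin counts moved between the near-identical Hba-a1 and Hba-a2 from library to library. Neutrophil markers summed to 61.7 and 66.9 CPM against 101 and 76.4 CPM, B cell markers to 61.9 and 62.0 CPM against 39.3 and 46.2 CPM and macrophage markers to 38.7 and 46.6 CPM against 33.2 and 35.4 CPM, with no marker called. Platelet markers (69.3 and 75.4 against 47.8 and 58.0 CPM), plasma and plasmacytoid dendritic cell markers (112 and 128 against 87.0 and 95.1 CPM) and stromal markers (43.5 and 34.1 against 34.7 and 32.1 CPM) gave 1 call each for Gp9 and Bst2, both lower, and 0 in the last. The call of Gp9 was lost without any 1 library and that of Bst2 in 3 of the 4 fits. The part of such cells in the results was not tested.

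Other genes rose from near 0. Cd244, a SLAM family receptor gene, had 2 and 0 counts in HSCs and 55 and 83 in MPP1, a ratio of 65.6 with a 95% counting interval of 17.8 to 547. Nlrc3, an inhibitory receptor gene of innate signalling, had 3 and 0 counts against 90 and 97, a ratio of 59.2 (20.0 to 290). Emilin2, an extracellular matrix gene, had 1.6 and 1.05 CPM against 15 and 12.4 CPM (3.36 ± 0.19, adjusted p = 1.08e-11).

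The levels of MPP1 were set among the other young fractions, which had 2 libraries each and entered the same fit but no test of these sums. The summed S phase genes averaged 3198 CPM in HSCs and 6696 in MPP1, while MPP2 had 9562, MPP3 7964 and MPP4 8135 CPM, with SDs of 0.372 to 109 (n = 2). For the G2/M genes the means were 2888 CPM in HSCs and 6741 in MPP1, while MPP2 had 10107, MPP3 6785 and MPP4 8508 CPM. The ranges of MPP1 (6660 to 6821 CPM) and MPP3 (6702 to 6867 CPM) overlapped, so the order of these neighbours was not resolved. The stem cell surface genes went from 6238 CPM in HSCs through 4057 in MPP1, 2909 in MPP2 and 2741 in MPP3 to 1728 in MPP4, with no overlap between neighbours in that order. Across the 5 fractions in the order HSC, MPP1, MPP2, MPP3 and MPP4, Cdk6 averaged 21, 52.1, 144, 122 and 78.7 CPM and Cdkn1c 147, 56.3, 25.3, 22 and 12.8 CPM. The libraries of MPP2 and MPP3 overlapped for Cdkn1c. Itga2 averaged 7.43 CPM in MPP1 and 7.25 to 8.76 CPM in MPP2, MPP3 and MPP4, against 1.35 CPM in HSCs.

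**Figure D4:**
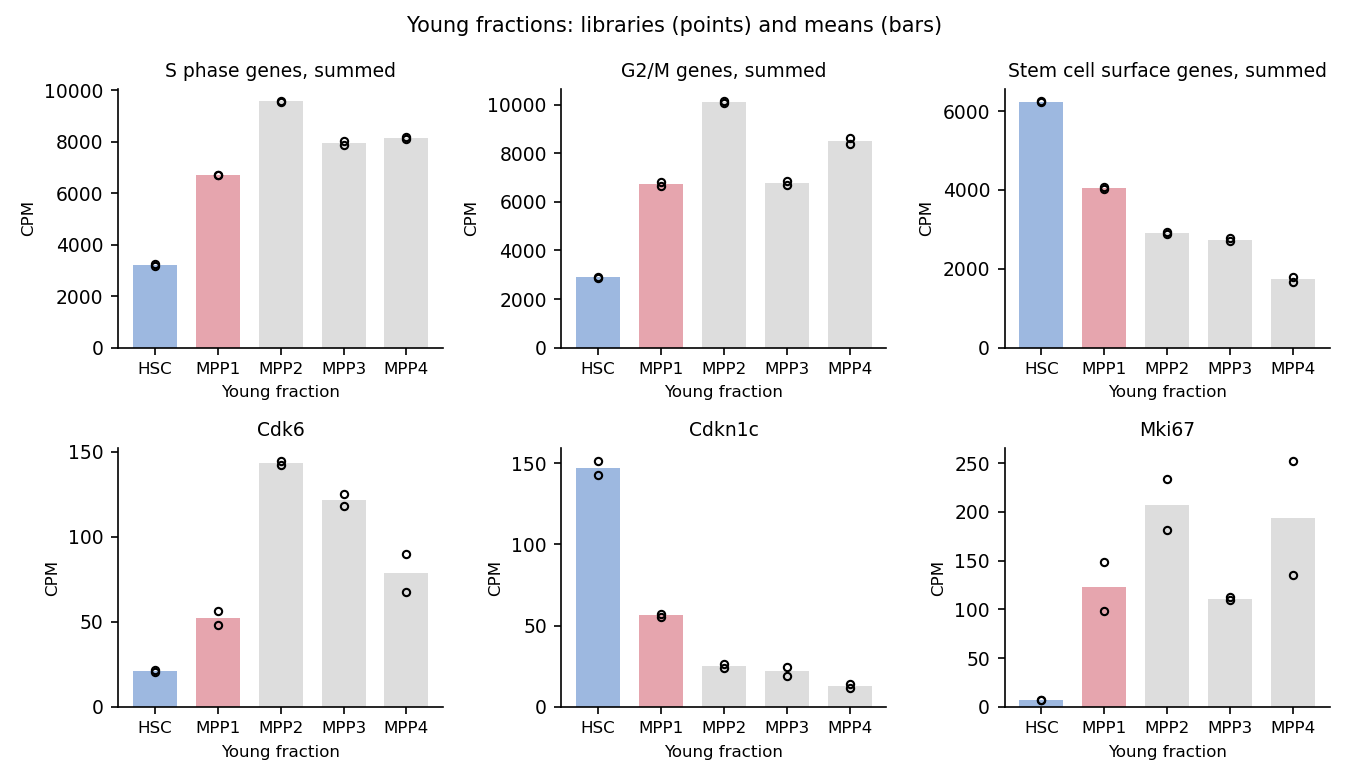
CPM of summed gene lists and of 3 genes in the young HSC, MPP1, MPP2, MPP3 and MPP4 libraries (points, 2 for each fraction), with bars from 0 at the means. The mean of MPP1 lies between those of HSCs and MPP2 in each panel, at 6696 CPM for the S phase genes and 56.3 CPM for Cdkn1c.

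The same fractions were sorted from mice at 20 months, which gave a comparison in libraries that share none with the young ones. In aged cells 1767 genes were higher and 1481 lower in MPP1 than in HSCs, or 12.5% and 10.5% of those tested. Of the genes higher in young MPP1 1076 were also called higher at 20 months, 83.5% of the young and 60.9% of the aged calls, and of the lower genes 623 were, 77.7% and 42.1%. The sign was the same for 98.3% of the higher and 99% of the lower genes. All 43 S phase genes and 51 of the G2/M genes were called higher in aged cells, with medians of 1.43 and 2.01. Vwf differed by -3.23, Clu by -3.52, Cyp26b1 by -3.47 and Hoxb5 by -1.92 at 20 months, close to their differences at 10 weeks.

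A test of the difference of the 2 differences called 17 genes, 0.12% of those tested: it was greater in aged cells for 2 and smaller for 15, where smaller means that MPP1 minus HSC was further below its value in young cells. The cell cycle genes Mki67, Cdkn2c and Cdkn1a were among them. Cdkn1a differed by -0.06 in young and -1.25 in aged cells (difference -1.18, adjusted p = 0.00257). Mki67 rose by 4.02 in young and by 2.04 in aged cells (difference -1.99, adjusted p = 0.00529), and it averaged 7.42 CPM in young and 40.4 CPM in aged HSCs. The call of this difference was lost in 7 of 8 fits without 1 library. Chil3, a chitinase-like gene of myeloid cells, was higher in MPP1 in young cells (2.26) and lower in aged cells (-1.65), and the neutrophil gene Ngp changed in the same sense without a call in young cells. The 7 neutrophil markers summed to 298 and 313 CPM in aged HSCs and 87.3 and 105 CPM in aged MPP1, and their part in these differences was not tested. Zc3h12a was also called in opposite directions at the 2 ages, and its young call was lost without any 1 library (adjusted p of up to 0.0841).

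**Figure D5:**
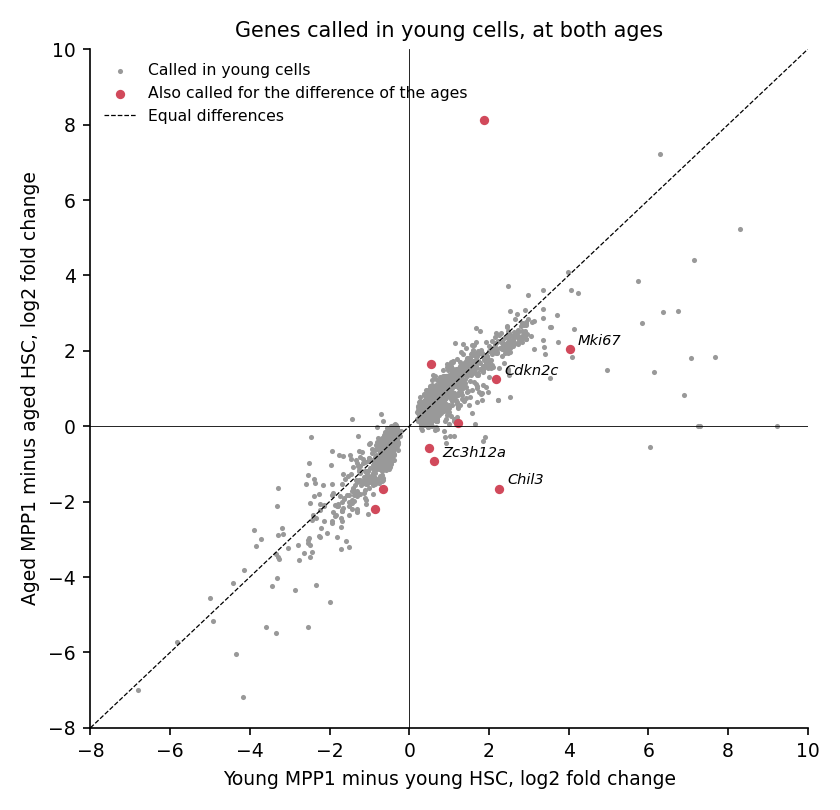
Log2 fold change of MPP1 against HSC at 20 months (vertical axis) by that at 10 weeks (horizontal axis) for the genes called in young cells, with a dashed line where both are equal. Red points are the genes whose difference between the ages was also called, such as Chil3 at 2.26 and -1.65.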

How the data were processed

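RNA from sorted bone marrow fractions was amplified with the SMARTer Ultra Low Input kit and sequenced on a HiSeq instrument, without molecular identifiers. The authors aligned reads to mm10 with TopHat2 2.0.13 and Bowtie2 2.1.0 and counted genes with StringTie. The deposited table holds raw counts per gene for 32 libraries, and whether counting used strand is not given in the sources used here. The authors' normalized table and their DESeq2 tables of log2 fold changes and p-values were not used. The 27 names that a spreadsheet had turned into dates held 0.188% of the counts.

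Counts were fitted with edgeR 4.0.16 in R 4.3.3 (quasi-likelihood test, TMM scaling, filterByExpr, all 32 libraries in 16 groups, 16 residual degrees of freedom, common dispersion 0.0127), with Benjamini-Hochberg adjustment over all genes tested. Every adjusted p given is from this test. The total count was 11252143 to 14220196 in the 4 libraries compared, so 3 counts, taken as the floor, are 0.211 to 0.267 CPM. Intervals of count ratios cover counting error only.

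The comparison, the gene lists and the marker lists were chosen with earlier results of these data known. Named genes were the antigens of the gate, the 15 largest changes each way among called genes with at least 5 CPM in the higher fraction and no overlap, up to 4 called members each way of each of 34 lists and all members of lists of up to 12 genes, and the 8 largest differences between ages. Genes named outside that rule, after their values were seen, were Tubb4b, Hjurp, Ctcf, Gas2l3, Procr, Mecom, Hlf, Fos, Kdr, Nkg7, Cpa3 and the markers without counts. A few genes that the rule selects are not reported here. Promoters came from RefSeq (GRCm38.p6) and were matched by symbol. Replicate numbers were shared between groups, with no source that pairs them. The fit was run on simulated counts with the same dispersion for every gene, which does not show the error rate in these data. Alternatives were DESeq2 1.42.0, its size factors, no filter, other sets of libraries, a replicate block, other thresholds, leaving out each library, and offsets for gene length and GC content.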

Additional observations from a re-analysis of the deposited data

Results flagged for a closer look

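The difference between MPP1 and HSCs changed with age for 8 genes of the rule for named genes, by edgeR's test of the difference between the 2 log2 fold changes (aged minus young). It was -3.91 for Chil3, -3.10 for the erythroid membrane gene Rhag, -2.56 for the neutrophil gene Ngp, -2.34 for the long noncoding RNA Malat1, -1.99 for Mki67, -1.55 for the RNase gene Zc3h12a, -1.52 for the transcription factor gene Bhlhe40 and -1.43 for the P-selectin gene Selp. Leaving out each of the 8 libraries in turn, the calls of Chil3 and Malat1 held in every fit, while the call was lost in 7 fits for Mki67, 6 each for Zc3h12a and Bhlhe40, 4 for Ngp, 3 for Selp and 2 for Rhag. Chil3 and Zc3h12a were higher in MPP1 in young and lower in aged cells. Malat1 differed by -0.17 in young and -2.51 in aged cells, and Rhag by 0.12 and -2.97. Mki67 was higher in MPP1 at both ages. The summed neutrophil markers were 298 and 313 CPM in aged HSCs and 61.7 and 66.9 CPM in young HSCs, and their part in the values of Chil3 and Ngp was not tested.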

How the results depend on the processing

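The counts of 1288 higher and 802 lower genes and of 2 greater and 15 smaller differences at 20 months are given in that order. They were 1907, 1533, 24 and 42 at an adjusted p under 0.05, and 425, 169, 2 and 14 with a change of at least 1 on the log2 scale. DESeq2 called 1566, 1395, 42 and 87. With only the libraries compared they were 1380, 1105, 1 and 17. Offsets for gene length and GC content, chosen after seeing the data, gave 1343, 662, 13 and 25, and turned the medians of the cell cycle inhibitor, oxidative phosphorylation, proteasome, erythroid and myeloid lists from just below 0 to 0.05, 0.01, 0.05, 0.09 and 0.19. Leaving out 1 library gave 698 to 931 higher and 220 to 652 lower genes, and 0 to 54 greater and 3 to 22 smaller differences, where the lone library left in a group is assumed to vary like the other groups. The 54 came without aged HSC replicate 1. The cause of these shifts was not tested. Whether the replicate numbers pair the samples is not known. The correlation of deviations was 0.064 between young HSC and MPP1, and -0.069 to 0.106 with a median of 0.007 over all pairs of groups. With 2 libraries a group it cannot decide the question. With a replicate block the counts were 1326, 822, 3 and 17, and with a replicate block and only the libraries compared 2067, 1688, 0 and 9. DESeq2 size factors (1220, 923, 2 and 17), no filter (1173, 835, 2 and 16) and the 16 young libraries alone (1227 higher and 601 lower) moved no count of the young comparison by over 1.5 times. None of the 155 named genes that were called changed direction under the alternatives run, while some named genes that were not called, such as Mxd4, Mxi1 and Cdkn1a, changed sign. Depth limits genes under about 3 counts per library, and 2 libraries per fraction, possibly from 1 pool, limit all tests.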
